A study of Drosophila melanogaster with 3 samples.

Results

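The 8 Hox genes of Drosophila melanogaster, lab, pb, Dfd, Scr, Antp, Ubx, abd-A and Abd-B, were examined for binding of the transcription factor Erect wing (Ewg). They were taken by name from the 13945 protein-coding genes of the Ensembl dm6 annotation on the main chromosomes. Ewg carrying a C-terminal eGFP, expressed from a transgene (strain ewg-GFP), was immunoprecipitated, per the sample descriptions with an antibody against GFP, from sheared chromatin of 200 to 800 bp. The embryos, male and female pooled, were 0 to 14 h old, and the 1 group held 3 biological replicates and no control sample of its own. Whole embryos of mixed stages were used, so the lists do not tell which cells or stages gave a peak. The sequence that drives the transgene is not stated in the labels. Another label field names ewg as the antibody, so whether untagged Ewg was also recovered is not settled by the labels.

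Hox genes encode homeodomain proteins that give each segment its identity along the axis from head to tail. In the fly they lie in 2 groups, the Antennapedia complex (lab, pb, Dfd, Scr, Antp) and the Bithorax complex (Ubx, abd-A, Abd-B), both on chromosome arm 3R. Long regulatory sequences between and within the genes set where each is on, and Polycomb and trithorax group proteins keep that state through elements in these sequences. Ewg is the fly homologue of NRF-1 and is known for its part in neurons and flight muscle.

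The results rest on peak lists. The authors' optimal set held 6793 peaks, which were also the 6793 strongest of the 30000 peaks of the pooled permissive list. A summit is the deposited point of highest signal of a peak. The territory of a gene means its span plus the flanks up to the next protein-coding gene on either side. Territories of neighbouring genes can share a flank.

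All 8 Hox genes had an optimal summit in their territory, and 5 of 8 had one within 500 bp of a transcript start. The 5 were pb, Dfd, Scr, abd-A and Abd-B, and the 3 without were lab, Antp and Ubx. Over all protein-coding genes, 26.4% had an optimal summit within 500 bp of a start and 37.3% had one in their territory. Hox territories are long, and among the 1807 genes with a territory at least as long as the shortest Hox territory the share was 69.8%. Any pooled summit, optimal or not, lay within 500 bp of a start of 7 of 8 Hox genes (all but lab), where 46.8% of all genes had one. The list is short and was chosen by name, so these counts are descriptions without a test.

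Together the territories held 55 optimal summits, in 51 separate regions. Most lay away from protein-coding starts. Only 7 of the 55 (12.7%) were promoter summits, against 48.2% of all optimal summits, while 26 (47.3%) were intronic and 22 (40%) intergenic, against 31.8% and 17.4% of all. Territories end at the next protein-coding gene and so mostly leave out the starts of other genes. The part of this definition in the gap was not tested, and other long territories were not compared. Beyond the territories, the 2 complexes held another 17 optimal summits, 3 in the Antennapedia and 14 in the Bithorax complex, because other protein-coding genes end the flanks there. Of the 72 summits in both complexes, 10 were stronger than every promoter summit of a Hox gene, and 6 of these 10 lay between abd-A and Abd-B.

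The sequences at the strongest optimal summit of each Hox gene, and at the 5 strongest of both complexes, are shown as examples of the letters at the places of highest signal. The bxd window and the pair between abd-A and Abd-B lie outside the territories and are not among the 55. Each runs 50 bases to either side of the summit on the plus strand of the Release 6 (dm6) reference genome. Capitals mark GCCAT, the core of the site of the Polycomb group protein Pho, and GAGAG, a site of the GAGA factor, on either strand (ATGGC and CTCTC on the other).
lab intron, chr3R:6665448-6665548: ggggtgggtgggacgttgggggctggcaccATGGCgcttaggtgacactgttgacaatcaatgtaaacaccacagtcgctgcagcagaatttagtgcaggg
pb promoter, chr3R:6742133-6742233: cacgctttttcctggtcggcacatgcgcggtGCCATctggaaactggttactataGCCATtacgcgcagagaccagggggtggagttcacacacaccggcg
Dfd promoter, chr3R:6791558-6791658: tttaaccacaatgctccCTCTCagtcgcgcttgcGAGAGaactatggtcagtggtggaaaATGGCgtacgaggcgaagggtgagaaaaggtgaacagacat
Scr promoter, chr3R:6850051-6850151: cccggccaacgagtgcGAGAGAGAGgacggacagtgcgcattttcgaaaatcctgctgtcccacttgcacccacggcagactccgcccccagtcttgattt
Antp downstream flank, chr3R:6893286-6893386: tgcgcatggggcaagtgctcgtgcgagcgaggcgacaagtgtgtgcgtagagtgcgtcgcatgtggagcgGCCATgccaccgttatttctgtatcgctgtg
Antp upstream flank, chr3R:7037348-7037448: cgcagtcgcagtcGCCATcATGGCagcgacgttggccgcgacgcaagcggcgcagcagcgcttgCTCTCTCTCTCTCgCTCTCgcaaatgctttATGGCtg
Ubx upstream flank, chr3R:16748755-16748855: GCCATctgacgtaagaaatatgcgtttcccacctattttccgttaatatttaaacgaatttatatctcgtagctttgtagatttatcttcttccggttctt
bxd transcript beyond Ubx, chr3R:16764151-16764251: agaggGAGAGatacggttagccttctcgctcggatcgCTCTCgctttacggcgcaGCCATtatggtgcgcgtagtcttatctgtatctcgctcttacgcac
abd-A intron, chr3R:16811911-16812011: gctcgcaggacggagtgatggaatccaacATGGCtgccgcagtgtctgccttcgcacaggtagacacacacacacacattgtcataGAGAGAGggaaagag
abd-A to Abd-B, 17345 bp from the nearest abd-A start, chr3R:16847344-16847444: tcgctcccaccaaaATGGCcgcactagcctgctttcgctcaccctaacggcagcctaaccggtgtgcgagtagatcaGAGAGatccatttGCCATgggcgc
abd-A to Abd-B, 39496 bp from the nearest abd-A start, chr3R:16869495-16869595: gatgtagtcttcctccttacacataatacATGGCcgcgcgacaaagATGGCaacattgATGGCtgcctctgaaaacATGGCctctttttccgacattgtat
Abd-B downstream flank, chr3R:16899523-16899623: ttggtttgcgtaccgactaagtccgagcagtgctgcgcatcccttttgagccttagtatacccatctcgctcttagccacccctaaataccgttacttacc
The Pho core was in 10 of these 12 windows and GAGAG in 6. Within the same 50 bp, the Pho core was at 45.5% of the 55 Hox summits and 16.4% of all optimal summits, and GAGAG at 34.5% and 18.7%. The summits at Scr and in the downstream flank of Abd-B had no Pho core within the printed bases.

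The genes of the Antennapedia complex are described first, in their order along the chromosome. The signal of a summit in a replicate is the authors' value in that replicate's own list, and the lists are not on one scale. Relative signal divides it by the replicate's median over the 5852 optimal peaks with a summit within 100 bp in all 3 lists, so that 1 is the median peak. A summit was called present in a replicate where its match was among the 6793 strongest regions of that list.

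The labial gene lab, which acts in the head and the embryonic midgut, spans 6661427 to 6678590 on the minus strand. Its territory of 24.3 kb held 1 optimal summit, at 6665498 in an intron, 2044 bp from the inner transcript start and 13092 bp from the outer one. Signals there were 65.9 (replicate 1), 104 (replicate 2) and 38.4 (replicate 3). In relative terms this was 0.703 ± 0.213 (SD, n = 3), under the median peak in every replicate, and the summit was present in replicates 1 and 2 but not in replicate 3. No summit of the pooled list lay within 500 bp of either start. Near the outer start, the list of replicate 2 held a weak region at 117 bp, with signal 57.2 at rank 7716. That of replicate 3 held one at 91 bp, with signal 19.5 at rank 18643. Replicate 2 also held a region 320 bp from the inner start, with signal 17.25 at rank 24946.

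The proboscipedia gene pb, needed for the mouthparts, is on the minus strand from 6707800 to 6742063 and has a single start. Its 1 optimal summit, at 6742183, lay 120 bp upstream of that start and ranked 1646 in the optimal set. The signal was 80.4, 287 and 96.0 in replicates 1, 2 and 3. Replicate 2 stood above the others also after scaling, with relative signals of 0.988, 2.32 and 1.14 (mean 1.48 ± 0.729, SD, n = 3). The 11 other pooled summits of pb, all inside the gene, were below the optimal set.

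Dfd (Deformed), which specifies the maxillary and mandibular segments, had the promoter summit with the highest pooled signal of the Hox genes, 984 against 940 at Abd-B. In relative signal these were level, and in replicates 1 and 3 that of Abd-B was the higher. It lay at 6791608, 228 bp upstream of the only start, at 6791836 on the plus strand, and ranked 439. Replicate 1 gave a signal of 208, replicate 2 of 577.5 and replicate 3 of 201, or 3.21 ± 1.27 (SD, n = 3) times the median peak. The body of Dfd held no optimal summit. The other 5 optimal summits of its 57.9 kb territory were in its flanks. Upstream, the summit at 6766541 reached 1.37 ± 0.440 (SD, n = 3) in relative signal.

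The remaining 4 lay between Dfd and Scr, in the flank that both genes share, and were weak. Their pooled signals were 203, 264, 155 and 194, in order along the chromosome, against a median of 269.9 over all optimal summits. The summit at 6810830 was 11 bp from a start of the noncoding gene lncRNA:CR45915, and those at 6815956 and 6816326 were 423 and 53 bp from one of lncRNA:CR42651. Of the 4, only the summit at 6818733 was present in all 3 replicates.

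Scr (Sex combs reduced), which acts in the labial and first thoracic segments, had an optimal summit at each of its 2 starts. The stronger, at 6850101, lay 120 bp upstream of the outer start at 6849981 and ranked 782. The signal was 158, 381 and 169 in replicates 1, 2 and 3, or 2.35 ± 0.637 (SD, n = 3) in relative signal. At the inner start, 6848505, the summit at 6848693 was 188 bp away and had signals of 82.9, 215 and 51.6 or 1.12 ± 0.570 (SD, n = 3) in relative signal. Both were highest in replicate 2 and present in all 3 replicates. Another summit, at 6853232 and 3251 bp from the outer start, was stronger than the inner promoter summit, at 1.58 ± 0.528 (SD, n = 3). An intronic one at 6845789 was present only in replicate 1.

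Antp (Antennapedia), which gives thoracic identity, has the longest territory of the 8, 186.1 kb, with 13 optimal summits. None lay within 500 bp of its 3 starts. Permissive summits below the optimal set did lie there, at 6933100 (260 bp from the start at 6932840), 6958779 (409 bp from 6958370) and 6999473 (245 bp from 6999228). Their pooled signals were 131, 126 and 40.1. The strongest optimal summits of Antp were outside the gene body.

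The summit at 6893336, downstream of Antp, was the strongest of both complexes and ranked 46 of 6793. It lay inside the noncoding gene lncRNA:CR45559, 126 bp from its start. Replicate 1 gave a signal of 491, replicate 2 of 1193 and replicate 3 of 548. The relative signal of 7.40 ± 1.96 (SD, n = 3) was well above 1 in every replicate (6.03, 9.64 and 6.52). Upstream of Antp, the summit at 7037398 had signals of 325, 865 and 321 or, relative to the median peak, 4.93 ± 1.79 (SD, n = 3). It was 38170 bp from the nearest Antp start and 480 bp from a start of lncRNA:CR44933.

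The upstream summit nearest to Antp, at 7001023, was 1795 bp from the outer start, at 2.59 ± 0.603 (SD, n = 3) times the median peak. The fourth flanking summit, at 6881830, had nearly the same relative signal in each replicate, 1.25, 1.16 and 1.29. Its nearest Hox start was that of Scr, at 31849 bp, and its nearest protein-coding start that of ftz, at 17506 bp. Inside the gene there were 9 optimal summits, with relative signals from 0.470 to 2.01. The highest of them, at 6912930, shared its region with the one at 6913154, which had 1.11 ± 0.517 (SD, n = 3).

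**Figure D1:**
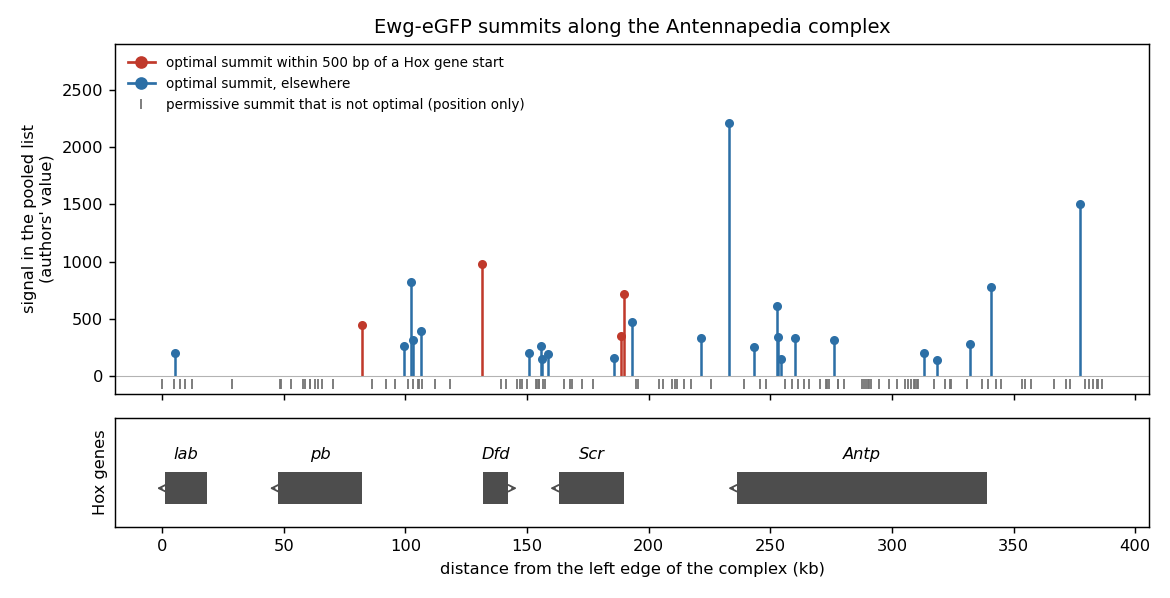
Summits along the Antennapedia complex: the horizontal axis is distance in kb from the left edge of the complex and the vertical axis the authors' signal in the pooled list, with stems for optimal summits (red within 500 bp of a Hox start, blue elsewhere), grey ticks for other permissive summits, and bars for the Hox genes with arrows in the direction of transcription. The tallest stem, 2213 at 233.2 kb, stands beside the downstream end of Antp, and the tallest red stem, 984, at Dfd.

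The Bithorax complex was bound more densely. Ubx (Ultrabithorax), which specifies the third thoracic and first abdominal segments, had no optimal summit within 500 bp of its single start at 16734426, and the nearest was 14379 bp away. A permissive summit 37 bp from the start had a pooled signal of 39.2 at rank 22977 of 30000. Ubx nevertheless had 8 optimal summits in its 95.1 kb, 6 in its introns and 2 upstream. The upstream summit at 16748805, inside the noncoding gene lncRNA:bxd, had the highest signal of Ubx, with 167, 234 and 152 in replicates 1, 2 and 3. Its relative signal was 1.92 ± 0.123 (SD, n = 3) and differed little between replicates. Of the intronic summits, that at 16672525 was the strongest, with 1.72 ± 0.496 (SD, n = 3), and the other 5 had means from 0.601 to 1.24. The second upstream summit, at 16749012, had 1.01 ± 0.324 (SD, n = 3).

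Farther upstream, and past the gene CG31275 that ends the flank of Ubx, the bxd transcript held the strongest summit of the Bithorax complex. It lay at 16764201, 29775 bp from the Ubx start, and ranked 65. The replicates gave signals of 483, 1003 and 480, or 6.58 ± 1.33 (SD, n = 3) times the median peak. A weaker summit at 16769588 in the same transcript was below 1 in each replicate. Nearer to abd-A, the one at 16784096 in lncRNA:CR44945 had a mean of 0.803 ± 0.467 (SD, n = 3).

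The gene abd-A (abdominal A), which acts in the anterior abdominal segments, had 5 optimal summits in 41.1 kb. The promoter summit, at 16830201, lay 152 bp upstream of the outermost start and was the weakest promoter summit of the 5 genes, at rank 4784. The signal was 47.6, 135 and 20.6 in replicates 1, 2 and 3, and in replicate 3 it ranked 17060 and was not called present. The intron of abd-A held a much stronger summit at 16811961, with 234, 674 and 231, or 3.69 ± 1.53 (SD, n = 3) times the median peak. Downstream of the gene, the summit at 16798879 went the other way among replicates, with relative signals of 3.09, 1.75 and 2.94, lowest in replicate 2. The weaker summits at 16794467, downstream, and 16815882, in the intron, had means of 0.775 ± 0.518 and 0.974 ± 0.551 (SD, n = 3 each).

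Between abd-A and Abd-B, over 97.2 kb, lay 19 optimal summits. One is the abd-A promoter summit, 11 lay within MSAmiP, a protein-coding gene of this interval that also ends the flanks of both Hox genes, and 7 in the downstream flank of Abd-B. All 11 in MSAmiP, and 6 of the 7 in the flank, were also inside the long noncoding transcript lncRNA:iab8. The 4 strongest within MSAmiP had relative signals of 5.96 ± 0.631 at 16847394, 5.25 ± 1.61 at 16869545, 4.99 ± 0.696 at 16886651 and 3.51 ± 1.48 at 16882617 (SD, n = 3 each). Another, at 16857224, was 882 bp from the microRNA gene mir-iab-8, with 3.44 ± 0.765 (SD, n = 3). Each of these was present in all 3 replicates. The other 6 in MSAmiP were weaker, with means from 0.582 to 1.69 for the 5 that were measured in all lists.

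Abd-B (Abdominal B), which acts in the posterior abdomen and genital segments, had the most optimal summits of the 8 genes, 17 in 78.9 kb, or 21.5 per 100 kb. Of its 6 starts, 2 had a promoter summit. The summit at 16934434 was 192 bp upstream of the start at 16934242, with signals of 224, 473.5 and 258 or 3.22 ± 0.552 (SD, n = 3) times the median peak. At the start at 16960281, the summit at 16960396 had signals of 184, 398 and 175 or 2.52 ± 0.612 (SD, n = 3) times the median peak. The outermost start, at 16972236, had its nearest optimal summit 568 bp away, just past the 500 bp limit, with 1.35 ± 0.593 (SD, n = 3).

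The strongest summit of Abd-B was in its downstream flank. It lay at 16899573, 34669 bp from the nearest Abd-B start, 3280 bp from a start of MSAmiP and 259 bp from one of lncRNA:iab8. This summit shared its region, 16899261 to 16900109, with the one at 16899774. The signal was 315.5, 525 and 384, and the relative signals of 3.88, 4.24 and 4.57 (mean 4.23 ± 0.347, SD, n = 3) differed little. The other 6 in this flank had means from 0.564 to 2.52, the highest at 16899774 and the next at 16913729 (2.46 ± 0.713, SD, n = 3). Within the gene there were 9 optimal summits, the promoter summits included. Of the other 7, the 5 measured in all lists had means from 0.574 to 1.37, and those at 16957988 and 16958249 each lacked a match in 1 replicate.

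**Figure D2:**
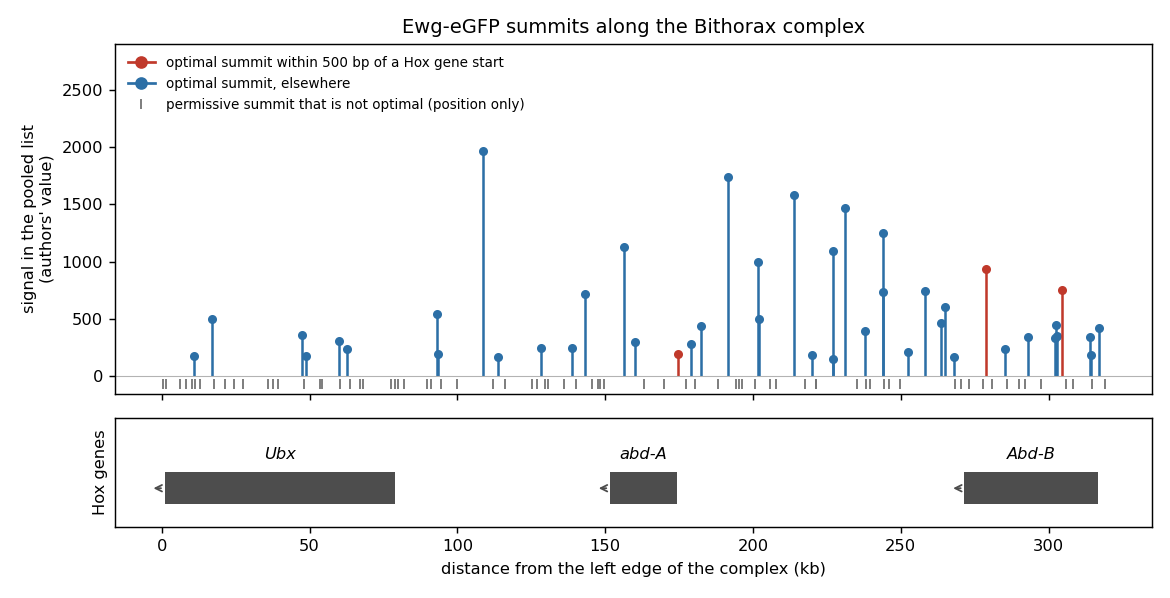
Summits along the Bithorax complex, with the axes and symbols of the Antennapedia map: distance in kb from the left edge of the complex against the authors' signal in the pooled list. The tall blue stems at 191.7, 213.9 and 231 kb stand between abd-A and Abd-B, while Ubx has no red stem. The stem of 1968 at 108.5 kb stands beyond its territory.

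The promoter summits of the Hox genes were compared with the other optimal summits of their territories in each replicate. The median log2 relative signal was higher at the 7 promoter summits than at the 44 others measured in all lists, by 0.68, 1.33 and 1.00 in replicates 1, 2 and 3. The mean difference was 1.00 ± 0.33 (SD, n = 3; two-sided exact sign-flip permutation test, p = 0.25). With 3 replicates this test cannot give a p below 0.25. All optimal peaks showed the same direction, with a difference of 0.36 ± 0.07 (SD, n = 3). All 7 promoter summits were highest in replicate 2, as were 1213 of 2740 promoter summits in all. The median GC content of the 7 was 56.7%, against 40.3% for all promoter summits, and its part in the difference was not tested.

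**Figure D3:**
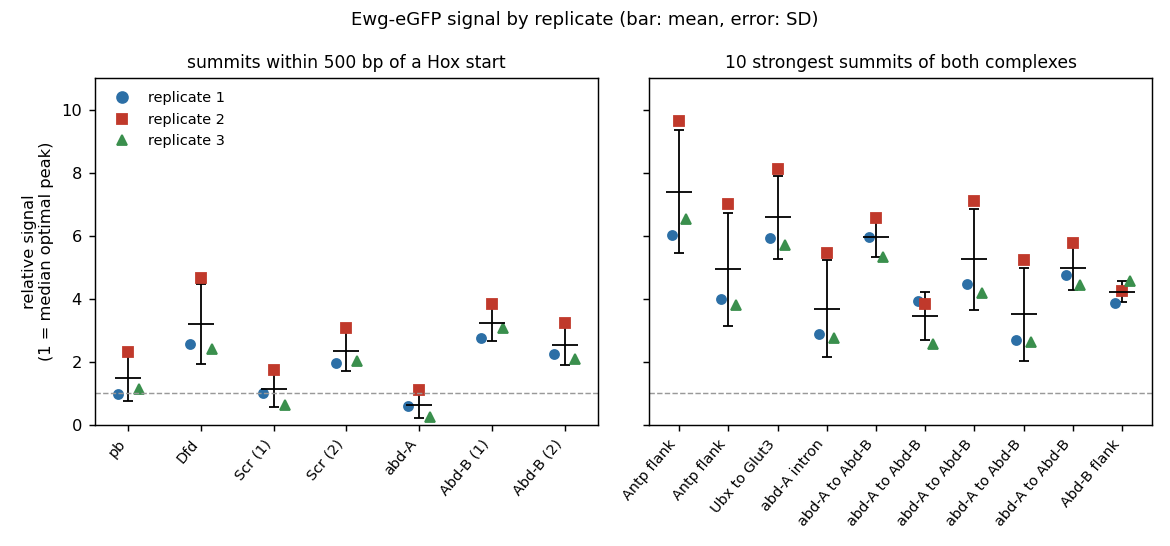
Relative signal (vertical axis, 1 is the median optimal peak, dashed line) in each replicate for the 7 promoter summits of Hox genes, left, and for the 10 strongest summits of both complexes, right, each in order along the chromosome, with horizontal bars for the mean and error bars for the SD of 3 replicates. Every point on the right lies at 2.56 or higher, and on the left the abd-A summit is the lowest, at 0.640 ± 0.424.

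The summits were packed more closely in the Bithorax than in the Antennapedia complex. The optimal set had 13.8 summits per 100 kb in the Bithorax complex, 7.14 in the Antennapedia complex and 5.07 in the genome. Taking the same number of strongest regions from each replicate, the Bithorax complex had 13.1, 15.0 and 12.8 per 100 kb and the Antennapedia complex 7.65, 7.65 and 8.16. The values of the complexes do not overlap between replicates, and the difference of 5.85 ± 1.38 per 100 kb had the same sign in each of them (exact sign-flip permutation test over n = 3, p = 0.25, the smallest it can give). The interval between abd-A and Abd-B was denser still, with 20.2 ± 1.57 per 100 kb (SD, n = 3).

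In bins of 100 kb along the genome, the median bin held 4 optimal summits and the fullest 24. Neighbouring bins that overlap the Bithorax complex held 16 each, more than 97.9% of the 1336 bins, and 28 bins in all held at least 16. The second of these bins runs past the end of the complex at 16975203, and not all of its 16 summits lie in the complex. The fullest bin of the Antennapedia complex held 10. The signal per summit did not differ in one direction across the replicates. In the Hox territories the median log2 relative signal was higher in the Bithorax than in the Antennapedia complex by 0.44 and 0.41 in replicates 1 and 2 but lower in replicate 3, by -0.46 (mean 0.13 ± 0.51, SD, n = 3; exact sign-flip permutation test, p = 1).

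**Figure D4:**
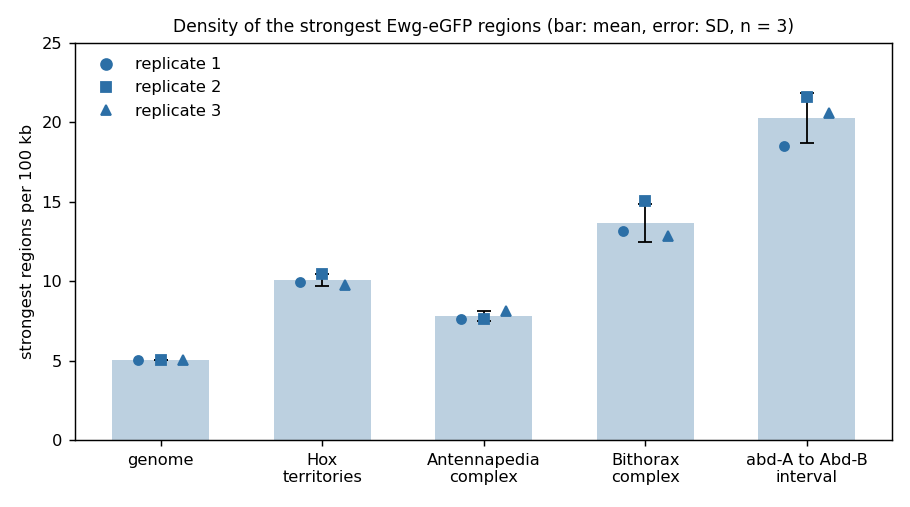
Strongest regions per 100 kb (vertical axis) in the genome, the Hox territories, each complex and the interval between abd-A and Abd-B, with bars for the mean, error bars for the SD and points for the 3 replicates. The Bithorax points lie between 12.8 and 15.0 and the Antennapedia points between 7.65 and 8.16, all above the genome value of 5.07.

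Reproducibility was described by presence among the strongest regions. Of the 55 optimal summits of the Hox territories, 42 (76.4%) were present in all 3 replicates, against 62.1% of all optimal summits. Presence depends on signal, and the median pooled signal was 341.5 at these Hox summits against 269.9 over all. The part of signal in the higher share was not tested. Replicate 1 held 92.7% of them, replicate 2 90.9% and replicate 3 81.8%. Of the 13 that were missing in at least 1 replicate, 6 were present in 1 only, and all 6 had a pooled signal under the median of 269.9. Of the 18 optimal summits between abd-A and Abd-B that were measured in all lists, 12 were highest in replicate 2, against 2315 of 5852 over all.

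The Hox summits had a higher GC content than most, and this moved with the replicates. The median GC content within 100 bp of the summit was 50.2% in the Hox territories and 39.3% over all optimal summits. The log2 ratio compared the relative signal in replicate 2 with the geometric mean of that in replicates 1 and 3. Its median was 0.47 in the Hox territories and -0.03 over all 5852 measured summits. Replicate 2 was above the other replicates' geometric mean at 29 of the 35 Hox summits with a GC content of 45% or more, and at 5 of the 16 below it. Over all optimal summits these shares were 84.1% and 30.4%, and Spearman's rho between GC content and the log2 ratio was 0.59 over the 51 Hox summits and 0.58 over all 5852. These correlations are across summits of the same 3 libraries and are descriptions. At a GC content of 45% or more, the median ratio was 0.67 at Hox summits and 0.60 over all.

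The Pho core GCCAT was the motif found at the most Hox summits. It lay within 100 bp of 34 of the 55 Hox summits (61.8%), against 29.2% of all optimal summits and 33.9% of windows shifted by 1000 bp from all optimal summits. Around the Hox summits themselves, the shifted windows held it in 20 of 55. Where the GC content was 45% or more, 30 of 37 Hox summits (81.1%) had the motif, against 38.6% of the 2275 such optimal summits. Below 45% it was in 4 of 18 (22.2%), against 24.4%. Among summits outside promoters the shares at the higher GC content were 76.7% and 42.2%.

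GAGAG, bound by the GAGA factor, was in 27 of the 55 (49.1%), against 31.9% of all optimal summits. At a GC content of 45% or more the shares were close, 54.1% at Hox summits and 51.1% over all, and below it they were 38.9% and 22.2%. Both motifs were present at 18 of the 55 Hox summits, against 672 of all 6793, and at least 1 of them at 43 of the 55, against 3473 of all 6793. TGAGTG, the site of Zeste, was in 14 of the 55 (25.5%), against 11.2%. Windows shifted by 1000 bp from the Hox summits held it in 8 of 55. Within 50 bp it was at 5 Hox summits and in 5 shifted windows, and within 250 bp at 25 and in 11. At a GC content of 45% or more TGAGTG was at 27.0% of Hox summits against 15.1%, and below that at 22.2% against 9.23%. The promoter element TATCGATA (DRE) was in none, against 3.46% of all. Among only 55 summits, none is hard to tell from so low a share. Promoter summits were also fewer, 12.7% of the Hox summits against 48.2% of all.

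Motifs of the NRF-1 type were searched because Ewg is its homologue. TGCGCA, searched apart from the palindrome below, was in 15 of the 55 (27.3%), against 17.2% of all optimal summits. At a GC content of 45% or more the shares were 32.4% and 33.7%, and below it 16.7% and 8.90%. The whole NRF-1 palindrome was at 3 Hox summits (5.45%), against 1.94%: the strongest summit of Antp at 6893336, and the weaker ones at 6845789 in Scr and 16718233 in Ubx. With at most 1 mismatch it was at 8 (14.5%), against 10.5%. All motifs were sought on both strands, and a match or its absence describes these letters only.

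**Figure D5:**
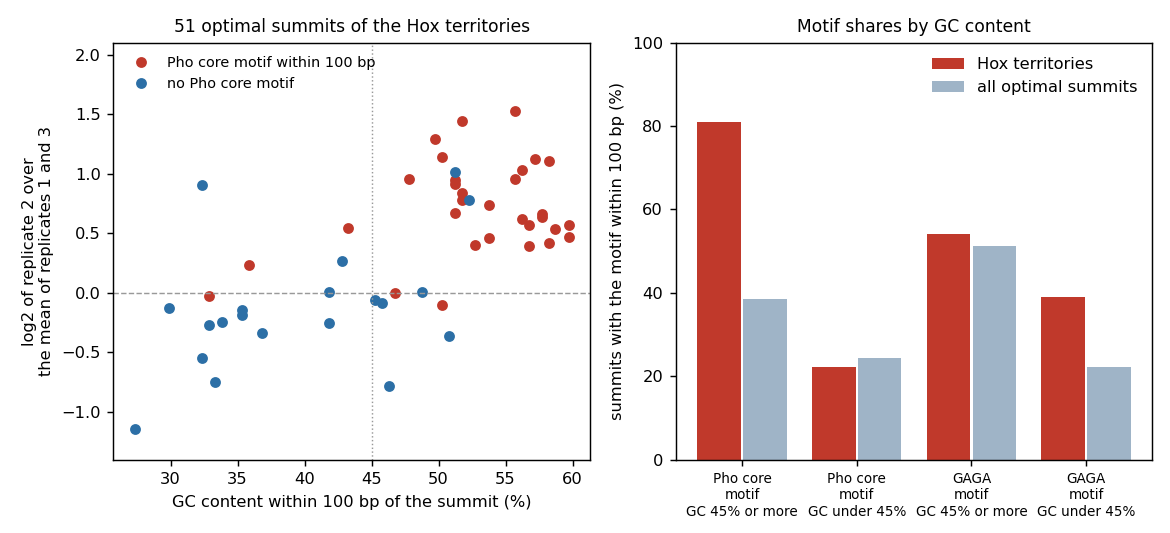
Left, GC content (horizontal axis, %) against the log2 ratio of replicate 2 to the geometric mean of replicates 1 and 3 (vertical axis) for the 51 measured optimal summits of the Hox territories, coloured by the Pho core motif, with a dotted line at 45%. Right, the share of summits (%) with the Pho core or the GAGA motif in the Hox territories and over all optimal summits, where the widest gap is 81.1% against 38.6%.

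Below the optimal set, the territories held another 150 permissive summits, with pooled signals from 31.0 to 138. Of these, 15 had a match in all 3 replicate lists, 49 in 2, 73 in 1 and 13 in none. That 10% were found in every list compares with 13.7% of all permissive summits below the optimal set. Pooled summits of the Hox territories were optimal in 26.8% of cases, against 22.6% over the genome. The strongest were at 16933516 in Abd-B (138), 6982030 in an Antp intron (131) and 6672523 in a lab intron (131). In the territory of pb the strongest was at 6723993 (114), inside the gene. In those of the other genes it lay in a flank: for Dfd at 6767080 (119) and for Scr, shared with Dfd, at 6816525 (104). For Ubx it was at 16655916 (114.8) and for abd-A at 16801149 (103.5). The one in the flank of Ubx lay within 500 bp of a start of another gene, modSP, and far from the Ubx start. The Pho core was within 100 bp of 71 of the 150 (47.3%), against 35.3% of all such summits. At a GC content of 45% or more the shares were 58.2% and 42.9%, and below it 35.2% and 30.4%.

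Genes that work with the Hox proteins were bound as well. The related gene lists below were chosen with earlier results of these data known, so their counts are descriptions without a test. Of 6 genes for cofactors and partners, 5 had an optimal summit within 500 bp of a start, where all genes had 26.4%. Homothorax (hth), the partner that brings the cofactor Extradenticle into the nucleus, had the strongest, at 10614500 on 3R, at 7.42 ± 1.77 (SD, n = 3) times the median peak. The trunk zinc finger genes tsh and tio had 1.08 ± 0.308 and 1.97 ± 0.796 (SD, n = 3 each), and the head genes disco and disco-r had 0.653 ± 0.204 and 1.33 ± 0.457. Only exd, which encodes Extradenticle, had none in this list.

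Of the 5 other genes of the Antennapedia complex, bcd and Ama had an optimal promoter summit, and zen, zen2 and ftz did not, where 26.4% of all genes had one. The stronger of the 2 at Ama, a cell adhesion gene, had 2.74 ± 0.764 and that at bcd, the anterior morphogen gene, 1.00 ± 0.237 (SD, n = 3 each). Of 8 genes known as targets of Hox proteins, 5 had one, namely Dll, Con, fkh, ems and ct, against 26.4% of all genes. The highest was at fkh, a forkhead gene of the salivary gland under the control of Scr, with 4.62 ± 1.41 (SD, n = 3). Dll, the leg gene that Ubx and abd-A repress in the abdomen, had 2.83 ± 0.930, and Con, a cell adhesion gene, 2.43 ± 0.989 (SD, n = 3 each). The head gap gene ems had 1.20 ± 0.308 and ct, a homeobox gene, 0.881 ± 0.271. There was none at dpp, rpr or salm, though all 8 had an optimal summit in their territory, as did 37.3% of all genes and 69.8% of those with long territories.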

How the data were processed

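Chromatin immunoprecipitation was analysed from the peak lists on dm6. Per the labels and the file records, the authors deposited a permissive list for each replicate, one from pooled replicates, and an optimal set thresholded by irreproducible discovery rate (IDR), each made from read alignments and 1 shared control alignment. Neither aligner nor caller is given in the sources used here. Lists on dm3 were not used. Signal means the authors' deposited value per peak, on a scale that differs between lists. Read counts are not in these lists, so depth is unknown.

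Summits were taken as the deposited offset from each start, counted from 1, and matched between lists within 100 bp. Annotation was Ensembl release 115, sequence the Release 6 genome, and gene and peak ends were checked against chromosome lengths. Complexes run between the outermost edges of the Hox territories. Genes nested in a Hox gene, and noncoding genes, did not end a flank. Motif windows were 100 bp to either side of the summit, and the 45% division by GC content was chosen after seeing the data. The sign-flip test over replicates was exact and two-sided, and was checked on fixed values only. Summit matching and the motif search were checked on simulated data. Nothing says whether replicates came from separate parents, so p-values refer only to these samples. With 3 replicates, a p of 0.25 means that the difference had the same sign in each, whatever its spread. The Hox genes, related gene lists and motifs were chosen with earlier results of these data known. All Hox genes and all optimal summits of their territories were described, singly or by their range, with up to 3 permissive summits per gene looked at. The 5 strongest summits of both complexes were added after their values were seen. Tools were scipy 1.17.1, pandas 2.3.3 and numpy 2.4.6, with figures from matplotlib 3.10.9, under Python 3.11.15. Alternatives covered the promoter window, starts, flanks, presence rules, scaling, motif windows and each replicate left out.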

Additional observations from a re-analysis of the deposited data

How the results depend on the processing

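The count of Hox genes with an optimal promoter summit stayed at 4 or 5 under every alternative run. Over all protein-coding genes the share moved more. It was 26.4% in the main setting, 15.8% in the stronger part of the optimal set (4 Hox genes) and 30% with a window of 1000 bp (5 Hox genes). With a replicate left out it was 19.6% to 20.5%, beside 4 or 5 Hox genes. Abd-B dropped out with the outermost start alone, and abd-A in the stronger part of the optimal set and without replicate 1 or 2. The 55 optimal summits in the territories became 29 with gene spans only and 36 with flanks ended by genes of any biotype. In the stronger part of the set there were 35, and with a replicate left out 43 to 46. With a replicate left out, the territories held 7.64 to 8.17 summits per 100 kb, against 3.515 to 3.666 in the genome. With all replicates these values were 9.77 and 5.07. The 205 pooled summits became 121 in gene spans and 66 with a match in every replicate list. The median relative signal of Hox summits, 1.25 as a mean over replicates, ran from 1.12 to 1.36 with a replicate left out, and as a percentile within the lists it was 91.8, which is another scale. GAGAG lay within 250 bp of 44 Hox summits (80%, against 57.9% of all optimal summits). TGAGTG lay within 50 bp of 5 (9.09%, against 5.46%) and within 250 bp of 25 (45.5%, against 26.1%). The NRF-1 palindrome lay within 50 bp of 1 (1.82%, against 1.65%), or of 5 with a mismatch allowed (9.09%, against 8.26%). The signal difference between Bithorax and Antennapedia territories ran from -0.03 to 0.42 on the log2 scale with a replicate left out, turning sign without replicate 1 (-0.026) and without replicate 2 (-0.014), and the cause was not tested. The 42 summits present in all replicates became 29 under a reciprocal overlap of 50% (52.7%, against 43.8% of all optimal summits). With no rank limit they became 51 (92.7%, against 86.15%). The promoter difference of 1.00 became 0.67 with a window of 1000 bp. TGCGCA ran from 10 Hox summits within 50 bp (18.2%, against 12.5% of all optimal summits) to 21 within 250 bp (38.2%, against 25.2%). There is 1 group, so no groups could be paired by replicate number. Depth is unknown, so weak summits cannot be told from unbound sequence by counting error.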
